A study of Mus musculus with 4 samples.

Results

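Bhlha15 encodes MIST1, a transcription factor of exocrine secretory cells, and it is described here together with 6 genes reported to depend on MIST1, namely Rab26, Rab3d, Mib1, Ccpg1, Gjb1 and Tmed6. The 7 genes are those rows of the array table whose only annotated gene symbol is one of these names, out of 19938 genes, and each has exactly 1 such probe set. RNA was hybridised to Affymetrix Mouse Gene ST arrays after laser capture, which cuts chosen cells out of tissue sections under a microscope. The groups were zymogenic (chief) cells of MIST1 knockout mice, zymogenic cells of wild type mice, mucous neck cells of MIST1 knockout mice and mucous neck cells of wild type mice, all from adult stomach on a C57BL/6 background, with 1 array per group. For each array, RNA of more than 1 dissection and more than 1 mouse was combined to reach about 100 ng. The design text gives 5 knockout and 4 wild type mice with 2 caps each, and does not say which mice entered which pool. The zymogenic cells were taken by position and shape, below the zone stained by the lectin GS-II and without the look of parietal cells. The labels give no age beyond adult, no sex and no description of the knockout allele.

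MIST1 belongs to the basic helix-loop-helix family, whose members pair up and bind short DNA motifs called E-boxes. In cells that store protein for release, such as pancreatic acinar cells and gastric zymogenic cells, it is known for raising the cell's capacity to build and keep secretory granules. In the gastric gland, zymogenic cells arise as mucous neck cells move down to the base, and MIST1 is a standard marker of the mature zymogenic cell. The reported targets sit at different steps of that programme. Rab26 and Rab3d are small GTPases of secretory granules. Tmed6 belongs to the p24 family, membrane proteins that travel between the endoplasmic reticulum (ER) and the Golgi and help to load cargo. Ccpg1 is a receptor that hands pieces of ER to autophagy. Gjb1 is connexin 32, a gap junction protein that couples neighbouring epithelial cells. Mib1 is a ubiquitin ligase that marks Notch ligands for uptake into the cell.

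E-boxes have the form CANNTG, and those with the cores CATATG and CAGCTG are reported for MIST1. RefSeq promoter windows of build GRCm38.p6, running from 250 bases before to 50 after an annotated start site, were at hand for 5 of the 7 genes, with 4 windows for Gjb1 and 1 each for Bhlha15, Rab3d, Ccpg1 and Tmed6. Rab26 and Mib1 had none in that table. The stretches upstream of the start site are shown for Bhlha15 and Tmed6, the 2 genes with the lowest knockout levels relative to wild type in both cell types, and for the last of the 4 Gjb1 starts, the only window with CATATG. Capitals mark every E-box, and the sequences read 5′ to 3′ along the gene.
Bhlha15, chr5:144190036-144190285, plus strand: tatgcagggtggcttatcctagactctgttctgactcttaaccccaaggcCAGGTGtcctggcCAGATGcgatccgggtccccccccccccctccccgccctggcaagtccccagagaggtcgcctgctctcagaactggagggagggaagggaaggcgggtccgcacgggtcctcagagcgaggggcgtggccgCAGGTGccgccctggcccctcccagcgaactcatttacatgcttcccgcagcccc
Tmed6, chr8:107065645-107065894, minus strand: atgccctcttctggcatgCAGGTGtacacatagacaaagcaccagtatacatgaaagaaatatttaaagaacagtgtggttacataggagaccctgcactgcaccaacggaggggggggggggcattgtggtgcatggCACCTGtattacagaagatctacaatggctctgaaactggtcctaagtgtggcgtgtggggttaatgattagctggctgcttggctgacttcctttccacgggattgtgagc
Gjb1, start 4, chrX:101383482-101383731, plus strand: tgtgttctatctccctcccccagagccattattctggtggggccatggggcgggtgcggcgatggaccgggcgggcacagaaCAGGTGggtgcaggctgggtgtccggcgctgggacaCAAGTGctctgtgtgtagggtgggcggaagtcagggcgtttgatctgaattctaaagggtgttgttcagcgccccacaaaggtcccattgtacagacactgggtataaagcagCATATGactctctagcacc

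The Gjb1 stretch has its CATATG with the first base 19 bases before the start site. Over all 32851 windows of the table, 3.91% hold CATATG, 16.3% hold CAGCTG and 72.3% hold any E-box, the first pair being instances of the third. All 3 motifs read the same on both strands. Of the 8 member windows searched, 4 of them of Gjb1, 6 hold any E-box and only the Gjb1 window shown holds CATATG. No member window holds CAGCTG, and the windows of Rab3d and Ccpg1 hold no E-box of any kind. Bhlha15 and Tmed6 each have 3 E-boxes in their whole window. In Tmed6 all 3 are CAGGTG, read on one strand or the other, with first bases 232 and 112 before and 5 after the start site, and in Bhlha15 CAGGTG occurs 200 and 55 bases before it beside 1 CAGATG. This motif was picked out after the windows were read. At least 3 copies of CAGGTG on either strand occur in 0.37% of all windows and at least 2 in 2.88%. A match is a description of the letters and not a bound site, and its absence says nothing beyond these windows.

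**Figure D1:**
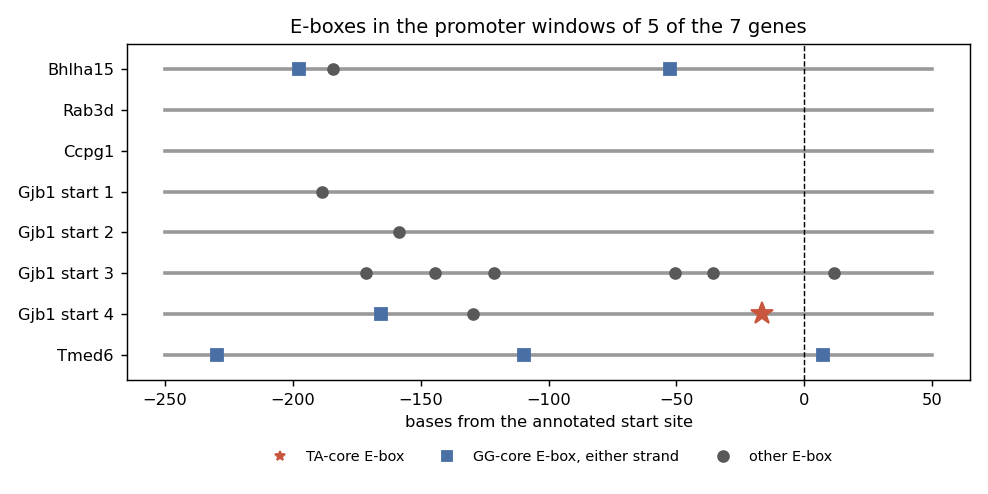
E-boxes in the 8 RefSeq promoter windows of 5 members, drawn by distance in bases from the annotated start site (dashed line). The star is CATATG, squares are CAGGTG on either strand and circles are other E-boxes. Tmed6 carries 3 squares and Bhlha15 2, while Rab3d and Ccpg1 carry no mark.

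The deposited values are probe set intensities on a linear scale, and differences are given as log2 values with intensities floored at 1. A level of 43.7, the median of all probe sets with 1 gene, marks off dim signals by size, since no background was measured. Each group is a single array, so differences carry no SD and no p-value, and neighbours in any order of levels cannot be separated from array-to-array spread. The 4 arrays had close medians over all probe sets, from 37.9 to 40.9. The cell labels can be read against marker genes. The summed intensity of 6 mucous neck markers was 689 in knockout and 1839 in wild type zymogenic cells, against 11845 in knockout and 9616 in wild type neck cells. Most of the gap between both zymogenic sums is 1 gene, Tff2, with 277 in knockout and 1320.4 in wild type zymogenic cells. That of 6 zymogenic markers was 24757 and 23152 in knockout and wild type zymogenic cells, against 14209 and 14270 in knockout and wild type neck cells, with 3 of the 6 under the level in zymogenic cells of either genotype. The pepsinogen gene Pgc makes up much of these sums and differed by 0.20 between cell types in wild type mice, while Pga5, another pepsinogen gene of the list, ran the other way, with 20.4 and 31.0 in knockout and wild type zymogenic cells and 1884 and 1350 in knockout and wild type neck cells.

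Other cell types also differed between the arrays. The summed intensity of 5 surface mucous cell markers was 10762 in knockout and 8977 in wild type zymogenic cells. It was 6670 in knockout and 6761 in wild type neck cells. All 5 were higher in zymogenic than neck cells in both genotypes, where 54.4% of all genes were in knockout and 54.0% in wild type mice. The summed intensity of 13 parietal cell markers was 8371 in knockout zymogenic, 4718 in wild type zymogenic, 8713 in knockout neck and 8339 in wild type neck cells. The wild type zymogenic array was thus lowest in parietal markers, and 4 of the 13 lay under the level of 43.7 there, against 1, 2 and 1 on the knockout zymogenic, knockout neck and wild type neck arrays. The defining pump gene Atp4a still read 2278 on that array. The sums of 12 endocrine markers were 13222 and 9194 in knockout and wild type zymogenic cells, and 3923 and 6023 in knockout and wild type neck cells. Those of 13 fibroblast and smooth muscle markers were 2039 and 1715 in knockout and wild type zymogenic cells, and 489 and 731 in knockout and wild type neck cells. Those of 12 immune markers were 732 and 899 in knockout and wild type zymogenic cells, and 348 and 550 in knockout and wild type neck cells. Bright genes weigh most in such sums. Between genotypes in zymogenic cells, 1 parietal marker was below 0 and 12 above, with a median of 0.80, against -0.01 over all genes. Of the surface mucous markers 2 were below and 3 above, and of the endocrine markers 5 were below and 7 above. For fibroblast and smooth muscle markers 7 were below and 6 above, and for immune markers 8 and 4, where 51.1% of all genes were lower. The immune gene Cd53 alone read 6.3 in knockout and 118 in wild type neck cells. What part these other cell types have in the values below was not tested. In captured tissue, fewer cells of a type and less RNA per cell cannot be told apart.

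All 7 genes had their highest intensity on the wild type zymogenic array. Among all 19938 genes, 32.8% were highest there. Under quantile normalization the count was 5 of 7, since Rab3d was then highest in knockout neck and Gjb1 in wild type neck cells, and under median centring it was 6 of 7, with Gjb1 again the exception. The lowest array differed from gene to gene. It was knockout neck for Bhlha15, Rab26 and Tmed6, wild type neck for Mib1 and knockout zymogenic for Rab3d, Ccpg1 and Gjb1. The highest value was 19.4 times the lowest for Tmed6, 2.18 times for Mib1 and 1.84 times for Ccpg1, the 3 genes above the level on all 4 arrays. For the other 4 genes the lowest value was under the level, and no such ratio is given.

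**Figure D2:**
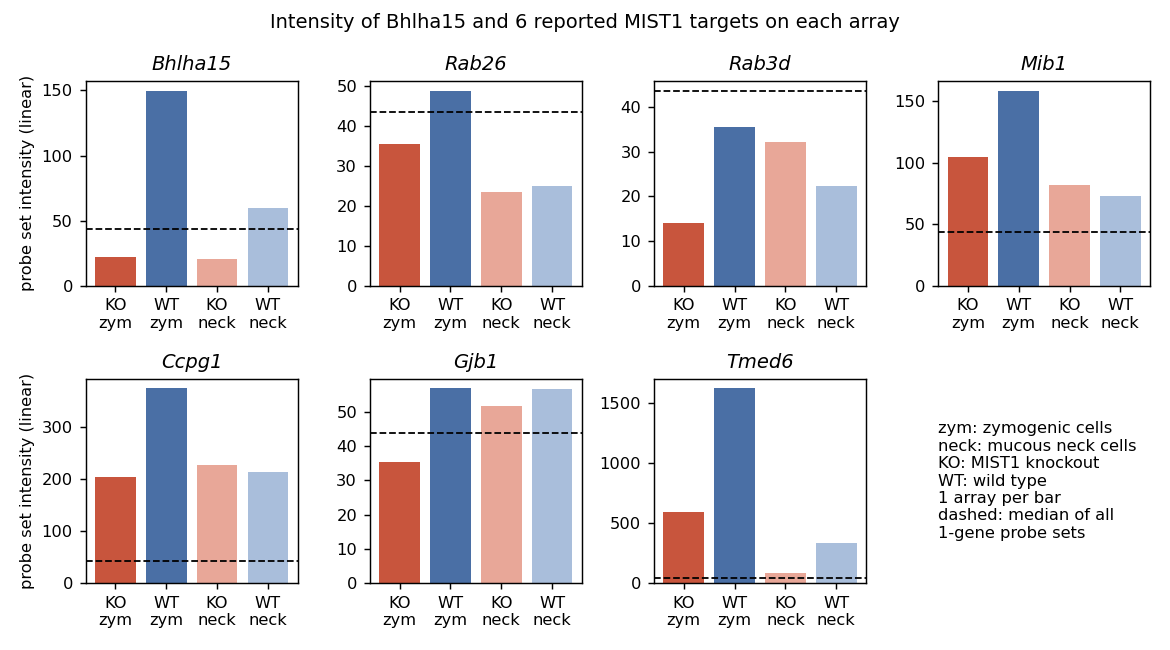
Intensity (linear, each axis from 0) of the 7 genes on the 4 arrays, 1 bar per array, with the level of 43.7 dashed. The wild type zymogenic bar is the tallest for every gene as deposited, Bhlha15 is under the dashed line on both knockout arrays, and Rab3d is under it on all 4.

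Bhlha15 itself checks the genotype labels. Its intensity was 22.0 in knockout and 149.8 in wild type zymogenic cells. In knockout neck cells it was 20.2, and in wild type neck cells 59.7. Both knockout arrays lay under the level of 43.7 and both wild type arrays above it. The log2 difference, knockout minus wild type, was -2.77 in zymogenic cells, where 20 of 11826 genes at the level had as low a value, and -1.56 in neck cells, where 54 of 10966 did. With a pseudocount of 32, which shrinks differences of dim probe sets, these were -1.75 and -0.81, the second being under 2-fold. The position of the probes relative to the part of the gene changed in the knockout was not known here, so this check has that limit.

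Within wild type mice Bhlha15 was 2.51 times as high in zymogenic as in neck cells, a log2 difference of 1.33, or 0.99 with the pseudocount. In knockout mice both cell types were under the level and no ratio is given. The protein-coding genes on either side of Bhlha15 on chromosome 5 had much closer values in both genotypes. Lmtk2, next to it, read 52.9 in knockout and 51.7 in wild type zymogenic cells, and 45.9 in knockout and 44.1 in wild type neck cells. Tecpr1, on the other side, read 55.4 in knockout and 40.8 in wild type zymogenic cells, and 51.6 in knockout and 48.6 in wild type neck cells. One gene further out, Bri3 differed between genotypes by 0.57 in zymogenic and -0.57 in neck cells, and Ocm was under the level on every array.

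Tmed6, the p24 family gene, had the widest range of the 7. It read 596 in knockout and 1620.3 in wild type zymogenic cells. Neck cells gave 83.5 in knockout and 337 in wild type mice. In each genotype it was higher in zymogenic cells, and in each cell type it was lower in knockout mice, with all 4 values above the level. The genotype difference was -1.44 in zymogenic cells and -2.01 in neck cells, and -1.40 and -1.68 with the pseudocount. As low a difference occurred in 226 of 11826 genes in zymogenic and in 23 of 10966 in neck cells. Both differences were past 2-fold under the pseudocount, quantile normalization and median centring too, whereas the neck difference of Bhlha15 was not under the first of these.

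The cell type difference of Tmed6, zymogenic minus neck, was 2.84 in knockout and 2.26 in wild type mice, and 32 of 11322 and 49 of 11778 genes were as high. The zymogenic level in knockout mice was above the neck level in wild type mice, by 0.82 on the log2 scale. The sequence of Tmed6 levels therefore ran from knockout neck over wild type neck and knockout zymogenic to wild type zymogenic cells. Each of these comparisons shares an array with another, so they are not separate lines of evidence.

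Among the other p24 genes, 8 had a probe set of their own on the array. Their median genotype difference was -0.03 in zymogenic cells and 0.07 in neck cells, against -0.01 and -0.03 over all genes. All 8 reached the level in both comparisons. Of all genes at the level, 5.23% were at least 2-fold lower in knockout mice in zymogenic and 2.40% in neck cells. The 95th percentile of their differences was 1.01 in zymogenic and 0.73 in neck cells. In zymogenic cells 1 of the 8 was at least 2-fold lower in knockout mice and 1 at least 2-fold higher. In neck cells none passed 2-fold either way. The lower one was Tmed3, with 325 in knockout and 816 in wild type zymogenic cells, a difference of -1.33, and with 222 in knockout and 345 in wild type neck cells, a difference of -0.63. Its cell type difference in wild type mice was 1.24, so its highest array was the same as that of Tmed6. The higher one was Tmed7, with 356 in knockout and 164 in wild type zymogenic cells, and 271 and 282 in knockout and wild type neck cells, its zymogenic difference of 1.11 being 0.98, under 2-fold, with the pseudocount. Tmed4 read 172 in knockout and 90.0 in wild type zymogenic cells, just short of 2-fold, and differed by 0.37 in neck cells. The other 5 differed by between -0.40 and 0.09 in zymogenic cells, and in neck cells Tmed9 differed by 0.90 and Tmed5 by 0.72.

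**Figure D3:**
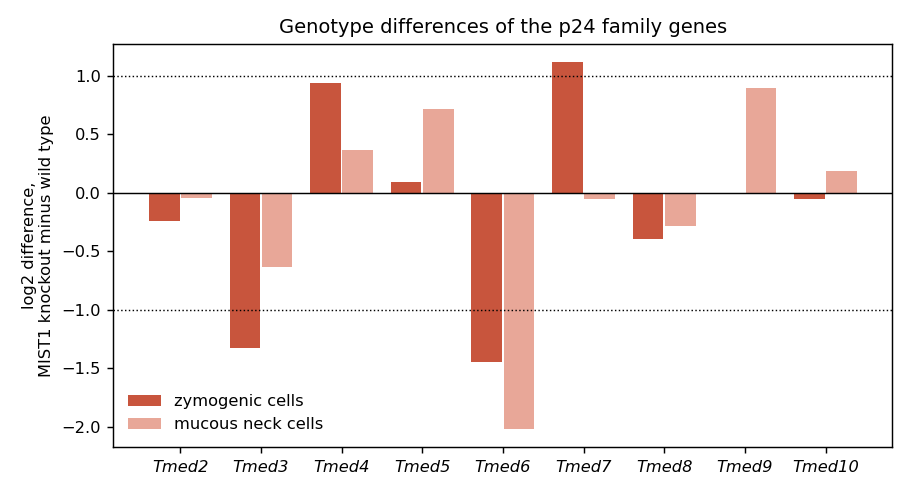
Log2 difference in intensity, MIST1 knockout minus wild type, for the 9 p24 family genes with a probe set of their own, in zymogenic and mucous neck cells (1 array per group). Dotted lines mark 2-fold. Tmed6 is below -1 in both cell types, Tmed3 is at -1.33 in zymogenic cells and Tmed7 at 1.11.

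Mib1, the Notch ligand ligase, read 104.5 in knockout and 158 in wild type zymogenic cells. The neck values were 81.5 in knockout and 72.8 in wild type mice. The wild type zymogenic value was the highest, and all 4 were above the level. The genotype difference was -0.60 in zymogenic and 0.16 in neck cells. In zymogenic cells 14.6% of genes at the level were as low, so a difference of this size was common between this pair of arrays. Zymogenic cells were above neck cells by 0.36 in knockout and by 1.12 in wild type mice, the second falling to 0.86, under 2-fold, with the pseudocount.

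The genes that act beside Mib1 mostly read near the level. Of 9 others in the list of Notch ligand ligases and ligands, none was 2-fold different between genotypes in either cell type. Among all genes at the level, 5.23% were at least 2-fold lower in zymogenic and 2.40% in neck cells. Of the 9, 6 were below 0 in zymogenic and 7 in neck cells, where 51.1% and 52.6% of all genes were. The median was -0.22 in zymogenic and -0.39 in neck cells, against -0.01 and -0.03 over all genes. Mib2, the sister ligase, read 84.0 in knockout and 106 in wild type zymogenic cells, and 62.3 and 81.6 in knockout and wild type neck cells. The ligand Dll4 read 61.0 in knockout and 74.5 in wild type zymogenic cells, and 43.5 and 86.6 in knockout and wild type neck cells, just short of 2-fold in neck cells. Jag1 and Jag2, further ligands, were under the level on every array.

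Ccpg1, the ER-phagy receptor, read 204 in knockout and 374 in wild type zymogenic cells. Knockout neck cells had 227 and wild type neck cells 213. The 3 other arrays lay within 204 to 227, and the wild type zymogenic array was above them. The genotype difference was -0.88 in zymogenic cells, where 7.23% of genes at the level were as low, and 0.09 in neck cells. The cell type difference was -0.16 in knockout and 0.81 in wild type mice. The pseudocount left the zymogenic genotype difference at -0.79, since Ccpg1 is well above the dim range.

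The remaining ER-phagy receptors and their partner Rb1cc1 (FIP200, which starts autophagosome formation) were counted in the same way. Of 9 genes, 2 were below 0 and 7 above between genotypes in zymogenic cells, where 51.1% of all genes were lower, and 5 were below and 4 above in neck cells, where 52.6% were. The medians were 0.13 and -0.14, against -0.01 and -0.03 over all genes. None of the 9 was past 2-fold, while 5.23% of genes at the level were at least 2-fold lower in zymogenic and 2.40% in neck cells. Tex264, one of the 2 below, read 58.1 in knockout and 86.3 in wild type zymogenic cells, a difference of -0.57, and Calcoco1 differed by -0.04. Retreg1, a receptor that curves ER sheets, differed by 0.24 between genotypes in zymogenic cells. It was higher in zymogenic than neck cells by 1.10 in knockout and 1.08 in wild type mice, or 0.95 and 0.92 with the pseudocount. At least 2-fold higher were 4.90% and 6.27% of genes at the level in these comparisons. Atl3 differed between genotypes by 0.70 in zymogenic and -0.78 in neck cells. Its difference between cell types, zymogenic minus neck, was 0.45 in knockout and -1.04 in wild type mice, the second being -0.75 with the pseudocount.

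Rab26 read 35.45 in knockout and 48.9 in wild type zymogenic cells. In knockout neck cells it was 23.5, and in wild type neck cells 25.1. It reached the level on the wild type zymogenic array alone and by a small margin. The genotype difference was -0.46 in zymogenic and -0.09 in neck cells. Adding 32 to each intensity made these -0.26 and -0.04. Zymogenic cells were above neck cells by 0.59 in knockout and 0.96 in wild type mice.

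Rab3d read 13.95 in knockout and 35.5 in wild type zymogenic cells. Neck cells gave 32.2 in knockout and 22.4 in wild type mice. None of the 4 values reached the level. The genotype difference was -1.35 in zymogenic and 0.52 in neck cells, and -0.55 and 0.24 with the pseudocount, so its size is not firm. As deposited, it was lower in zymogenic than in neck cells of knockout mice, by a log2 difference of -1.21, and higher in wild type mice, by 0.66.

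Among 6 other Rab GTPases of secretory granules, 4 were below 0 and 2 above between genotypes in zymogenic cells, with a median of -0.24, and 3 were below and 3 above in neck cells, with a median of -0.07. Over all genes 51.1% and 52.6% were lower, with medians of -0.01 and -0.03. Rab27a, which ties granules to the plasma membrane, was the only one at least 2-fold lower in zymogenic cells, where 5.23% of genes at the level were. It read 32.9 in knockout and 69.8 in wild type zymogenic cells, a difference of -1.08 that was -0.65, under 2-fold, with the pseudocount. In neck cells it read 83.1 in knockout and 47.3 in wild type mice, the opposite direction, as for Rab3d. Rab27b read 112 in knockout and 132 in wild type zymogenic cells, and 246 and 223 in knockout and wild type neck cells. Rab3c, a relative of Rab3d, was higher in zymogenic than neck cells by 1.58 in knockout and 1.16 in wild type mice and differed by 0.10 between genotypes in zymogenic cells. Both of its neck values were under the level, and with the pseudocount the cell type differences were 0.94 and 0.71, under 2-fold.

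Gjb1, connexin 32, read 35.3 in knockout and 56.7 in wild type zymogenic cells. The neck values were 51.6 in knockout and 56.6 in wild type mice. The knockout zymogenic array was the lowest and the only one under the level. The genotype difference was -0.68 in zymogenic and -0.13 in neck cells, and -0.40 and -0.08 with the pseudocount. The cell types differed by -0.55 in knockout and by 0.00 in wild type mice, the second turning to -0.03 under quantile normalization and under median centring.

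Of 8 other connexins with a probe set of their own, 2 were below 0 and 6 above between genotypes in zymogenic cells, with a median of 0.27. None was past 2-fold there, where 5.23% of genes at the level were at least 2-fold lower. Only 5 of the 8 were at the level in zymogenic and 4 in neck cells. In neck cells 4 were below 0 and 4 above, with a median of -0.03, and Gja5 differed by -1.09 with both values under the level. Over all genes 51.1% and 52.6% were lower in these comparisons. Gjb2, connexin 26, was one of the 2 below, with 49.0 in knockout and 73.5 in wild type zymogenic cells, and 32.4 and 45.7 in knockout and wild type neck cells. Gja1, connexin 43, read 341 in knockout and 198.9 in wild type zymogenic cells, and 274 and 261 in knockout and wild type neck cells.

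Counted over all 7 genes whatever their level, 7 were lower in knockout than in wild type zymogenic cells, where 51.1% of all genes were, and 4 of 7 were lower in knockout than in wild type neck cells, where 52.6% of all genes were. The members were chosen with earlier results of these data known, and counts by direction were added after seeing the data. These counts are therefore a description and not a test. The median over the 7 was -0.88 in zymogenic cells and -0.09 in neck cells, against -0.01 and -0.03 over all genes. At 2-fold or more, Bhlha15 and Tmed6 were lower in knockout cells in both comparisons. That made 2 of the 6 members at the level in zymogenic cells, where 5.23% of genes at the level passed, and 2 of the 5 in neck cells, where 2.40% did. Rab26 and Gjb1 were among the 6 through their wild type values alone, as was Bhlha15 in both cell types, so membership at the level was tied to being higher in wild type cells. Bhlha15 is the knocked-out gene and not a target, though it is part of these counts and medians. Apart from it, Tmed6 was the only member at the level that was at least 2-fold lower in either cell type.

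**Figure D4:**
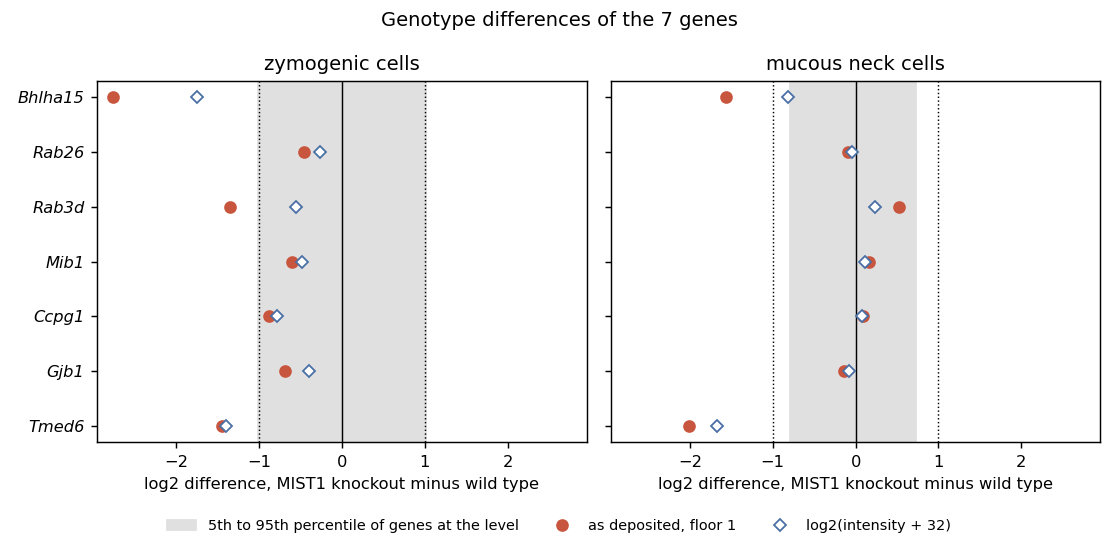
Log2 difference in intensity, MIST1 knockout minus wild type, of the 7 genes in zymogenic and mucous neck cells (1 array per group), as deposited (circles) and with a pseudocount of 32 (diamonds). Grey spans the 5th to 95th percentile of genes at the level and dotted lines mark 2-fold. In zymogenic cells all circles lie below 0, and in neck cells Bhlha15 and Tmed6 lie well below the rest.

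Between cell types, 4 of 7 were higher in zymogenic than in neck cells of knockout mice, where 54.4% of all genes were, and 7 of 7 in wild type mice, where 54.0% of all genes were. These counts by direction were also added after seeing the data. Gjb1 counts among the 7 at a difference of 0.00. Among the 4 is Bhlha15, whose values in knockout mice were both under the level, so its direction there carries little. The median over the 7 in wild type mice was 0.96, against 0.05 over all genes. At 2-fold or more, Tmed6 alone was higher in zymogenic cells of knockout mice, 1 of 4 members at the level, where 4.90% of genes passed. In wild type mice Bhlha15, Mib1 and Tmed6 were, 3 of 6 members at the level, where 6.27% did. The wild type counts and the zymogenic genotype counts both contain the wild type zymogenic array, so they share whatever is particular to it.

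**Figure D5:**
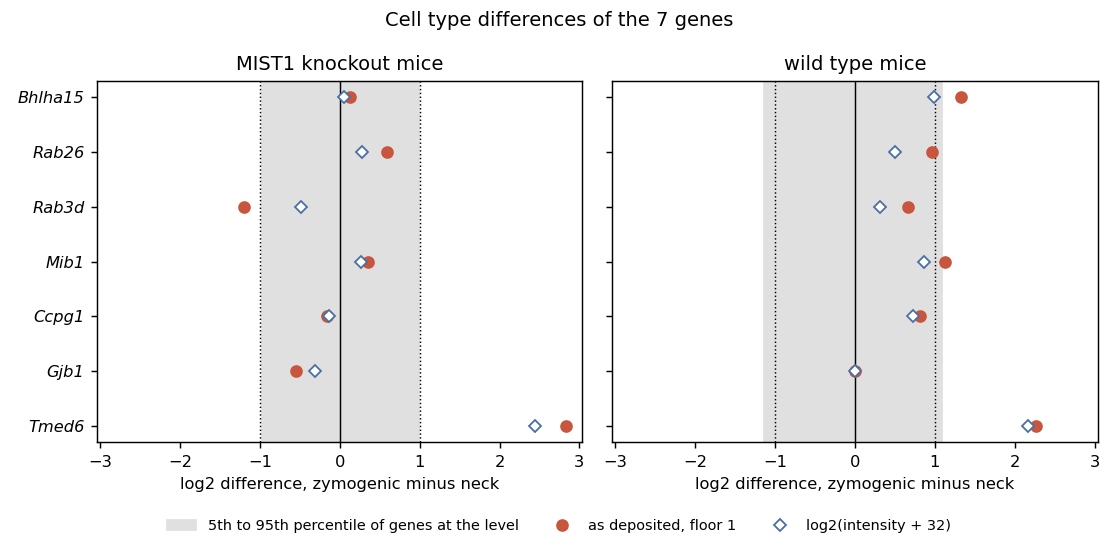
Log2 difference in intensity, zymogenic minus neck, of the 7 genes in MIST1 knockout and wild type mice (1 array per group), with symbols, grey span and dotted lines as for the genotype differences. Tmed6 lies near 2.84 in knockout and 2.26 in wild type mice, Rab3d lies at -1.21 in knockout mice, and Gjb1 lies at 0 in wild type mice.

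The genotype difference in zymogenic cells minus that in neck cells sets both cell types side by side. It was -1.87 for Rab3d, -1.20 for Bhlha15, -0.97 for Ccpg1, -0.76 for Mib1, -0.55 for Gjb1 and -0.37 for Rab26, and 0.57 for Tmed6. Tmed6 was thus the only member whose log2 difference between genotypes was larger in neck than in zymogenic cells. Over all genes this value had a median of 0.01 and an SD across genes of 0.745. The values of Gjb1, Rab26 and Tmed6 were within that SD of 0, and that of Mib1 was close to it. With the pseudocount the value for Tmed6 was 0.28 and that for Rab3d -0.79.

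MIST1 acts in pairs, with itself or with E proteins, and Id proteins can take E proteins away from such pairs. Among the 3 E protein genes, Tcf3 read 49.4 and 55.8 in knockout and wild type zymogenic cells, Tcf4 read 273 and 320, and Tcf12 read 241 and 218. Over the 7 E protein and Id genes the median genotype difference was -0.09 in both cell types. Id3 was the only one past 2-fold between genotypes, with 63.8 in knockout and 20.6 in wild type zymogenic cells, and 78.9 and 98.4 in knockout and wild type neck cells. Its wild type zymogenic value is under the level, and the zymogenic difference of 1.63 was 0.86, under 2-fold, with the pseudocount. For genes at the level, the 95th percentile of the zymogenic genotype difference was 1.01. Id4 read 67.1 and 71.3 in knockout and wild type zymogenic cells and 375 and 338 in knockout and wild type neck cells, so it was lower in zymogenic cells of both genotypes, by -2.48 in knockout and -2.25 in wild type mice. Id2 ran the same way, by -1.42 in knockout and -1.34 in wild type mice.

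Of 4 further genes recalled as standing upstream or downstream of MIST1 in secretory cells, 3 had a probe set of their own. Xbp1, a transcription factor of the ER stress response that lies upstream of MIST1, read 402 in knockout and 301 in wild type zymogenic cells, and 260.1 and 217 in knockout and wild type neck cells. Serpini1, a secreted protease inhibitor, read 14.7 in knockout and 49.2 in wild type zymogenic cells, and 24.1 and 14.6 in knockout and wild type neck cells, reaching the level on 1 array. Atp2c2, a calcium pump of the secretory pathway, was under the level on every array.

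The profiles of the 7 genes over the 4 arrays were not alike in size. The likeness of 2 genes was measured as the distance between their profiles of log2(intensity + 32), each centred on its own mean. The search covered 11902 genes that reached the level on at least 1 array, after symbols of predicted, olfactory, vomeronasal and small RNA genes were left out. Nearest to Bhlha15 were Ctsc (0.21), Gcdh (0.35), Ccdc122 (0.36), Aass (0.37) and Dapp1 (0.40). Ctsc, the gene of cathepsin C, read 53.9 in knockout and 224 in wild type zymogenic cells, and 41.6 and 87.2 in knockout and wild type neck cells. Of these 5 genes only Ccdc122 was among the nearest 5 with the floor of 1 in place of the pseudocount, so the order depends on how dim values are handled. The closest member to Bhlha15 was Ccpg1, at 0.96, with 374 genes nearer.

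Tmed6 had few near profiles. The nearest were Nucb2 (0.71), Cdo1 (0.73) and Gdf9 (0.81), and Bhlha15 stood at 1.90 with 149 genes nearer. Nucb2, which encodes a calcium-binding secretory protein, read 1050 in knockout and 2663 in wild type zymogenic cells, and 308 and 582 in knockout and wild type neck cells. The nearest genes were Slamf8, Cbfa2t2 and H4c8 for Mib1, Exosc7, Prss46 and N4bp3 for Ccpg1, Rgs1, Nudt9 and Mroh1 for Gjb1, Klc3, Irak1 and Col10a1 for Rab26, and Tmem165, Ttc39d and Meox1 for Rab3d, at distances of 0.02 to 0.06. Of each of these groups of 3, 0 or 1 was again among the nearest 3 with the floor of 1.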

How the data were processed

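The deposited table holds 1 intensity value per probe set and array, on a linear scale, which the authors made with dChip per the series design text. How dChip corrected, summarised and scaled the probes was not stated, and no detection calls were used. Of 35512 probe sets, 21789 have 1 gene in the platform annotation, 1621 have several and 12102 are not listed; only the first kind was used. Where a gene had more than 1 probe set, that with the highest mean log2 value stood for it, leaving 19938 genes. Intensities were floored at 1 and converted to log2 in Python 3.11.15 with pandas 2.3.3. Counts at 2-fold cover genes with at least 1 of both values at or above the median of 1-gene probe sets. The functions were tested on simulated data. Alternatives were a pseudocount of 32, quantile normalization, median centring, the 75th percentile as level, and no filter. The members, the lists around them and the named-gene rule (all members, list examples, the nearest 5 profiles to Bhlha15 and nearest 3 to each other member, and the 2 neighbours on each side of Bhlha15) were chosen with earlier results of these data known. The lists were recalled from general knowledge and not checked against a database.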

Additional observations from a re-analysis of the deposited data

Results flagged for a closer look

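In 3 members the genotype difference had opposite directions in the 2 cell types, lower in knockout than wild type in zymogenic cells and higher in neck cells. The difference of the differences, zymogenic minus neck, was -1.87 for Rab3d, -0.97 for Ccpg1 and -0.76 for Mib1 on the log2 scale. Over all genes it had a median of 0.01 and an SD across genes of 0.745, so values like that of Mib1 were common. The share of all genes with opposite directions was not counted. With 1 array per group each direction rests on 1 pair of arrays, and the difference was not tested. Rab3d was under the level of 43.7 on all 4 arrays. For Ccpg1 and Mib1 the neck differences were small, at 0.09 and 0.16.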

How the results depend on the processing

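Of 105 alternative values of the 35 member differences, 7 dropped under 2-fold, all with the pseudocount of 32, and 1 passed it. For Bhlha15 the pseudocount gave -0.81 for knockout minus wild type in neck cells and 0.99 for zymogenic minus neck in wild type mice. For Ccpg1 the difference between the cell types' genotype differences was -1.01 under median centring. The number of members at least 2-fold lower in knockout neck cells was 1 with the pseudocount and 1 with the 75th percentile as level, against 2. The number at least 2-fold higher in wild type zymogenic than neck cells was 1 with the pseudocount, against 3. The number at least 2-fold lower in knockout zymogenic than neck cells was 1 with no filter, against 0. The number at least 2-fold lower in knockout than wild type zymogenic cells was 3 with no filter, against 2. Both changes came through Rab3d. Under quantile normalization and under median centring 1 member, Gjb1, was lower in wild type zymogenic than neck cells, against 0; counts of members by direction were added after seeing the data. No difference past 2-fold changed sign. Scaling shifted no array's median by more than 0.06. The alternative of other probe sets did not arise, since each member has 1. No paired analysis was possible because each group is 1 array and the labels give no replicate numbers. The number of arrays limits the precision, and signal over background is unknown.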
